A study of Mus musculus with 6 samples.

Results

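Hepatic mRNA of 10 genes of bile acid synthesis, conjugation and feedback was measured by RNA sequencing in mice with an intestinal deletion of *Mttp* and in littermate controls. The genes were taken by symbol from the table of counts: Cyp7a1, Cyp8b1, Cyp27a1, Cyp7b1, Hsd3b7, Akr1d1, Slc27a5, Baat, Nr1h4 and Nr0b2. All 10 were found among the 41388 genes listed, and all 10 had enough reads to be tested. All mice were *Mttp* f/f Villin Cre ER T2 animals on a C57BL/6 background, 12 to 16 weeks old, in which tamoxifen deletes *Mttp* in the intestinal epithelium, where the Villin promoter acts. Tamoxifen at 50 µg per g per day for 5 days gave the *Mttp-IKO* group, and littermates injected with vehicle were the controls, called wild type in the labels. Tamoxifen itself therefore differed between the groups along with the deletion, and the 2 cannot be told apart here. Both groups began a methionine- and choline-deficient (MCD) diet 3 weeks after injection and ate it for 3 weeks, so every liver was an MCD liver and no chow-fed group was analysed here. Each group had 3 pools of liver RNA, each made from 3 to 4 mice. The spread between pools is therefore narrower than that between single mice. The labels of every pool instead give 12 pooled livers for the series, and these numbers were not reconciled. The number of mice in a pool is thus uncertain. The sources also differ on the fast before collection, with 4 h in the label of every pool and 4 to 6 h elsewhere.

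Bile acids are made from cholesterol in hepatocytes. The classical route opens with Cyp7a1, its rate-limiting enzyme, and Cyp8b1 then steers the product toward cholic acid. The alternative route opens with the mitochondrial enzyme Cyp27a1, followed by Cyp7b1. Both routes share the enzymes of the sterol ring, Hsd3b7 and Akr1d1, and both end with Slc27a5 and Baat, which join the bile acid to coenzyme A and then to taurine or glycine. The bile acid receptor FXR (Nr1h4) closes a feedback loop: it induces the repressor SHP (Nr0b2), which lowers Cyp7a1 and Cyp8b1, while FXR in the ileum induces the hormone Fgf15, which acts on the liver to the same end.

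The promoter windows of the repressor gene and of 1 of its known targets are shown because these genes stand at the opposite ends of that loop, and because Nr0b2 was the member that rose in *Mttp-IKO* liver. Both come from RefSeq on GRCm38.p6, run 5′ to 3′ on the gene's own strand, and end at the base before the annotated start. Capitals mark matches to the motifs named below. The Nr0b2 window lies at chr4:133553126-133553375 on the plus strand, and the Cyp8b1 window at chr9:121916306-121916555 on the minus strand.
Nr0b2: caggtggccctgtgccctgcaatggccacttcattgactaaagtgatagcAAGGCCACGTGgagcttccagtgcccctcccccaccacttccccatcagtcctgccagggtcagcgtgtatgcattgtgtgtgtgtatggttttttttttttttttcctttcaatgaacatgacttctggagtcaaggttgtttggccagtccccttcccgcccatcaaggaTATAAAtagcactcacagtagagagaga
Cyp8b1: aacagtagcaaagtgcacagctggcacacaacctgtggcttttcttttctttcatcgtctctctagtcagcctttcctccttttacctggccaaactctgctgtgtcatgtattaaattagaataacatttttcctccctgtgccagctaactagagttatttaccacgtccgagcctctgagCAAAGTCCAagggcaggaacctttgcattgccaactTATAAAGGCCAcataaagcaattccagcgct
Windows of 250 bases were found for 6 of the 10 members (Cyp8b1, Cyp27a1, Hsd3b7, Akr1d1, Nr1h4 and Nr0b2), and each motif was searched on both strands in these and in all 32851 windows of the table. The Nr0b2 window held AAGGCCA, a form of the element bound by LRH-1 (Nr5a2), at −200 to −194, a motif found in 5.24% of all windows. It ran into the E-box CACGTG at −195 to −190, which was present in 6.02% of all windows and is the letter pattern of clock factors. The TATA box TATAAA lay at −28 to −23, as a motif held by 12.4% of all windows. In the Cyp8b1 window, CAAAGTCCA, a pattern of HNF4 (Hnf4a) present in 0.384% of all windows, lay at −67 to −59. Its TATAAA at −31 to −26 overlapped AAGGCCA at −27 to −21. Both windows thus held the C form of the LRH-1 element and a TATA box. The hexamer AGGTCA, the core of many nuclear receptor elements, was found in 14% of all windows and, among the members, on the minus strand of Akr1d1 (−232 to −227 and −210 to −205) and of Nr1h4 (−214 to −209). The inverted repeat of that hexamer with 1 base between, AGGTCANTGACCT, which is the pattern of FXR with its partner RXR, was in none of the 6 windows and in 0.00609% of all windows. The direct repeat AGGTCANAGGTCA (0.0335% of all), the T form AAGGTCA (4.08%) and the D-box TTATGTAA (0.819%) were not in the 6 windows either.

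The libraries held 25271585 to 36238734 reads on genes, so that 3 reads in a library equalled 0.0828 to 0.119 CPM (counts scaled to library size). Levels below are CPM with library sizes scaled by the TMM method, and p-values come from edgeR's quasi-likelihood test with Benjamini-Hochberg adjustment over all 17287 genes tested, at a threshold of 0.05. All 9 hepatocyte markers found had reads in every pool. By edgeR 0 of the 9 passed, with 3 at an unadjusted p under 0.05, where 23.0% of all genes tested were. By the DESeq2 Wald test 3 passed as higher in *Mttp-IKO* (Alb, Apoa1 and Fgb), where that test called 1995 of all 17287 genes tested, 657 of them as higher. Of the 9, 7 had a higher and 2 a lower mean (Ttr and Hpx), with a median log2 fold change of 0.336. Their summed level was 69531 to 101482 CPM in control and 121589 to 174988 CPM in *Mttp-IKO* pools, most of it Alb, the gene of serum albumin. Markers of other cells moved too: of 8 stellate cell markers, 6 passed as lower in *Mttp-IKO*, at a summed level of 643.4 to 1256 CPM in control and 266.8 to 346.6 CPM in *Mttp-IKO* pools, with a median log2 fold change of −2.24. Of 8 macrophage markers, 1 passed by edgeR, as higher (Timd4), and 5 had a lower mean, at a summed level of 516 to 854.2 CPM in control and 372.6 to 768.9 CPM in *Mttp-IKO* pools. In edgeR 6 of the 8 had an unadjusted p under 0.05. The DESeq2 Wald test called 3 of them, Timd4 as higher and Adgre1 and Cd68 as lower. Over all genes tested, 4.01% passed by edgeR in either direction. The part of cell composition in the values of the members was not tested. In whole liver, fewer cells of a type and less RNA per cell cannot be told apart. *Mttp-IKO* pool 3 stood apart in its RNA: small RNA genes took 0.29% of its reads against 1.92% to 3.51% in the others, and mRNAs of 300 to 1000 nt took 1.84% of its reads on protein-coding genes against 3.98% to 4.28%. Control pools 1 and 2 carried striated muscle mRNA, with summed marker levels of 83.8 and 683 CPM. Control pool 3 and the *Mttp-IKO* pools had 1.01 to 1.58 CPM. The part of this muscle mRNA in the values of the members was not tested. The liver level of Mttp, which Villin Cre does not target, was 90.4, 186 and 175 CPM in control pools 1, 2 and 3 and 145, 129 and 161 CPM in *Mttp-IKO* pools 1, 2 and 3, so it is no check of the intestinal deletion.

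The comparison asks whether the synthesis of bile acids, their conjugation and the feedback on both are transcribed differently in MCD-fed liver when the intestine lacks *Mttp*. Nr0b2 rose about 2.10-fold in *Mttp-IKO* liver and was the only one of the 10 members to pass the test. The share is 1 of 10, read against 4.01% of all genes tested that passed in either direction and 0.920% that passed and were higher. The other 9 did not pass, and 3 of the 10 had an unadjusted p under 0.05 (Nr0b2, Slc27a5 and Akr1d1), where 23.0% of all genes tested did. Of the 10, 5 had a higher and 5 a lower fitted mean in *Mttp-IKO*, with a median log2 fold change of 0.075 against 0.0057 for all genes tested. The *Mttp-IKO* and control pools did not overlap for 2 members, Nr0b2 and Slc27a5, where 31.0% of all genes tested showed no overlap.

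**Figure D1:**
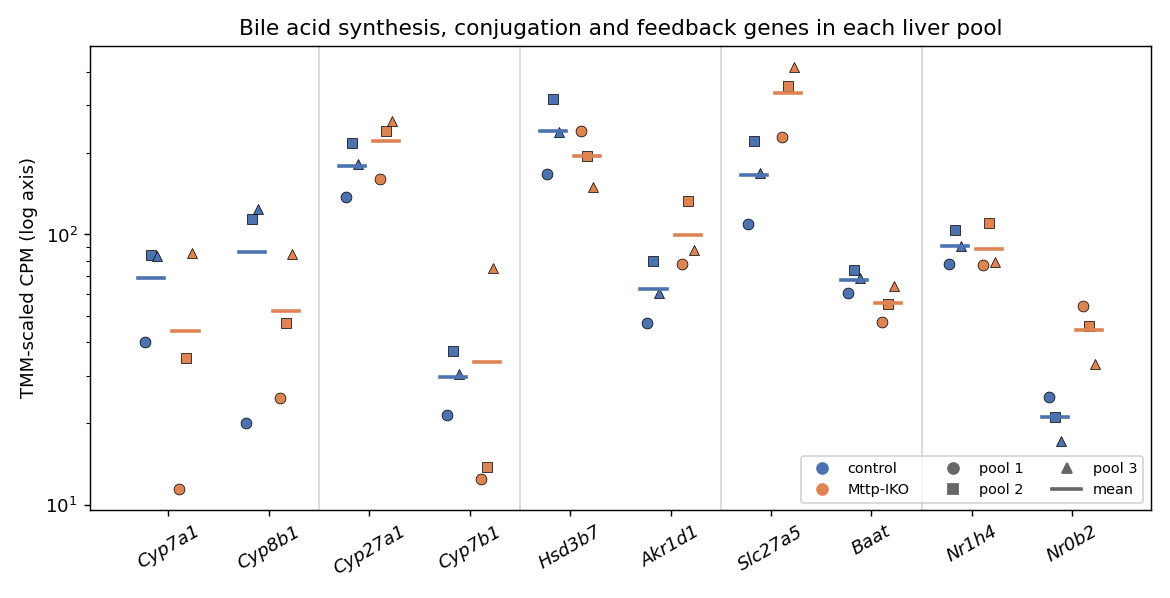
TMM-scaled CPM (log axis) of the 10 genes in each of the 6 liver pools, in the order classical route, alternative route, ring steps, conjugation and feedback. Points are pools, with blue for control, orange for *Mttp-IKO* and a shape for the pool number, and bars are means. Nr0b2 and Slc27a5 are the genes whose groups do not overlap, and Cyp7a1, Cyp8b1 and Cyp7b1 have the widest spread within a group.

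Nr0b2 (ENSMUSG00000037583, chromosome 4, 133553376 to 133556536, plus strand, GRCm38) encodes SHP, a nuclear receptor without a DNA-binding domain that represses the first steps of synthesis. Its level was 25.1, 21.1 and 17.3 CPM in control pools 1, 2 and 3 and 54.5, 45.8 and 33.1 CPM in *Mttp-IKO* pools 1, 2 and 3. Every *Mttp-IKO* pool was above every control pool, and pool 1 was the highest of each group. The means were 21.2 ± 3.94 CPM (SD, n = 3) in control and 44.5 ± 10.8 CPM (SD, n = 3) in *Mttp-IKO* liver. The log2 fold change was 1.07 (SE 0.225), with an edgeR adjusted p of 0.0435, close to the threshold. The sign held in all 17 alternatives, with log2 fold changes of 0.89 to 1.25, and 10 of them kept the gene past the threshold. It did not pass when library sizes were left unscaled (edgeR adjusted p = 0.0699), with limma-voom (0.0555), or without any 1 of control pools 1, 2 or 3 (edgeR adjusted p = 0.119, 0.0967 and 0.199) or *Mttp-IKO* pools 1 or 2 (0.093 and 0.148). Without *Mttp-IKO* pool 3, the library that stood apart, the log2 fold change was 1.25 with an edgeR adjusted p of 0.0208.

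Nr1h4 (ENSMUSG00000047638, chromosome 10, 89454234 to 89533585, minus strand) encodes FXR, the receptor that induces Nr0b2. Its level was 78.1, 104 and 90.9 CPM in control pools 1, 2 and 3 and 76.9, 110.2 and 78.9 CPM in *Mttp-IKO* pools 1, 2 and 3. The groups overlapped almost wholly, with means of 91.0 ± 13.04 and 88.7 ± 18.7 CPM (SD, n = 3 each). The log2 fold change was −0.038 (SE 0.198, edgeR adjusted p = 0.931). The receptor mRNA thus showed no difference beyond its spread where the mRNA of its target did. Set per length within a pool, Nr0b2 stood at 0.655, 0.412 and 0.386 times Nr1h4 in control pools 1, 2 and 3 and at 1.44, 0.846 and 0.853 times in *Mttp-IKO* pools 1, 2 and 3. This ratio did not overlap between the groups, as Nr0b2 alone did not.

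Further FXR targets were taken from a list of 6: the canalicular pumps Abcb11 and Abcb4, the basolateral exporter Slc51a and Slc51b, the transcription factor Mafg and the phospholipid transfer protein Pltp. By edgeR 0 of the 6 passed, 2 had a higher and 4 a lower mean, and their median log2 fold change was −0.13. By edgeR 0 of the 6 had an unadjusted p under 0.05. Of all genes tested, 23.0% had such a p and 4.01% passed, and a list of 6 is too short to tell 0 from these shares. The DESeq2 Wald test and limma-voom called 0 of the 6 as well, where they called 1995 and 428 of all 17287 genes tested. Slc51a had the largest estimate of the list (log2 fold change −0.77, SE 0.692, edgeR adjusted p = 0.541) at 0.417 ± 0.299 CPM in control and 0.244 ± 0.09998 CPM in *Mttp-IKO* liver, a level of 4 to 26 reads a pool. Slc51b, of the same exporter, had an estimate of the opposite sign (log2 fold change 0.76, SE 0.826, edgeR adjusted p = 0.622) at 3 to 60 reads a pool. Mafg, which FXR induces and which represses Cyp8b1, had the smallest (0.028, SE 0.157, edgeR adjusted p = 0.935). Fgf15 had 0 reads in all 6 liver pools, which allows a level of up to 0.0828 to 0.119 CPM by counting error. Nr1h5, the mouse gene of FXR-beta, had 4.17 ± 0.507 CPM in control and 2.34 ± 1.402 CPM in *Mttp-IKO* liver (log2 fold change −0.83, SE 0.402, edgeR adjusted p = 0.262). Of the receptor for Fgf15, Fgfr4 was close to 0 (log2 fold change −0.030, SE 0.270, edgeR adjusted p = 0.961) and its partner Klb was 0.40 (SE 0.293, edgeR adjusted p = 0.457).

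The classical route had lower means in *Mttp-IKO* liver, but neither enzyme passed the test, since pools of 1 genotype differed by as much as the genotypes. Cyp7a1 (ENSMUSG00000028240, chromosome 4, 6265612 to 6275633, minus strand) was at 39.99, 84.1 and 83.4 CPM in control pools 1, 2 and 3 and at 11.5, 35.0 and 85.7 CPM in *Mttp-IKO* pools 1, 2 and 3. *Mttp-IKO* pool 3 was the highest of all pools and *Mttp-IKO* pool 1 the lowest, a 7.46-fold range within the genotype against a median of 1.42-fold over the 9244 genes with a mean log2 CPM of at least 3. The means were 69.2 ± 25.3 and 44.1 ± 37.9 CPM (SD, n = 3 each), and the log2 fold change was −0.65 (SE 0.621, edgeR adjusted p = 0.567). Without *Mttp-IKO* pool 3 it was −1.57, and the edgeR adjusted p of 0.119 still missed the threshold. Without *Mttp-IKO* pool 1 it was −0.20.

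Cyp8b1 (ENSMUSG00000050445, chromosome 9, 121914356 to 121916305, minus strand) is the second enzyme of the route and, like Cyp7a1, a target of SHP. Its level was 20.03, 114 and 125 CPM in control pools 1, 2 and 3 and 24.9, 47.1 and 84.8 CPM in *Mttp-IKO* pools 1, 2 and 3. The lowest of the 6 values was control pool 1, so the groups overlapped, and the range within control was 6.22-fold against a median of 1.19-fold over the same 9244 genes. The means were 86.2 ± 57.5 and 52.2 ± 30.3 CPM (SD, n = 3 each), with a log2 fold change of −0.72 (SE 0.651, edgeR adjusted p = 0.543). With 1 pool left out the value ran from −1.26 (without *Mttp-IKO* pool 3) and −1.22 (without control pool 1) to −0.39 (without control pool 3, and likewise without *Mttp-IKO* pool 1), and none of these passed (edgeR adjusted p = 0.311, 0.276, 0.848 and 0.749).

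Within each genotype, pool 1 had the highest Nr0b2 and the lowest Cyp7a1 and Cyp8b1, and pool 3 had the lowest Nr0b2 and the highest Cyp8b1. Across genotypes the order did not carry over, as *Mttp-IKO* pool 3 had more Nr0b2 than any control pool and also the most Cyp7a1. Per length, Nr0b2 stood at 2.32, 0.925 and 0.764 times Cyp7a1 in control pools 1, 2 and 3 and at 17.5, 4.82 and 1.42 times in *Mttp-IKO* pools 1, 2 and 3, so the groups overlapped. With 6 pools in 2 genotypes, these values are a description. Genes of the circadian clock, which also drives Cyp7a1 and Nr0b2 over the day, differed between the genotypes: Arntl, Clock and Cry1 passed the edgeR test as higher in *Mttp-IKO* and Nr1d1 as lower. Dbp, a clock output factor that activates Cyp7a1 and was singled out after its values were seen, was at 54.1, 73.5 and 56.9 CPM in control pools 1, 2 and 3 and at 6.45, 16.1 and 35.8 CPM in *Mttp-IKO* pools 1, 2 and 3 (log2 fold change −1.67, SE 0.518, edgeR adjusted p = 0.112). Among the *Mttp-IKO* pools Dbp and Cyp7a1 had the same order. Across genotypes this order did not carry over, as *Mttp-IKO* pool 3 had less Dbp than any control pool and the most Cyp7a1. The part of the clock genes in these differences was not tested, and the labels give the length of the fast (4 h) but no hour of collection.

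**Figure D2:**
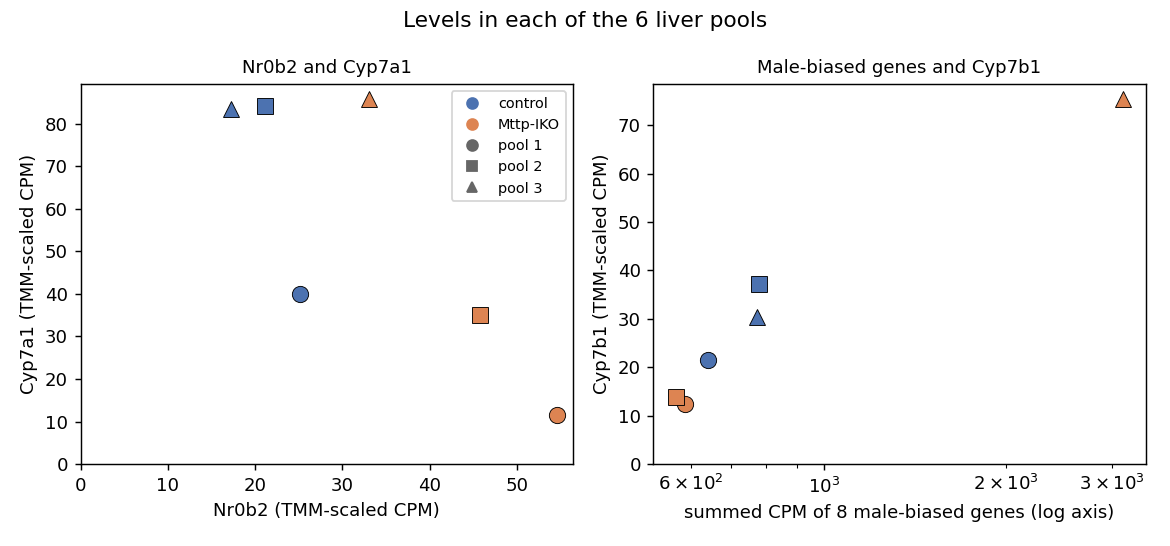
Levels in each of the 6 pools in TMM-scaled CPM, with blue for control, orange for *Mttp-IKO* and a shape for the pool number. In the left panel (Nr0b2 on x, Cyp7a1 on y), pool 1 of each genotype lies lowest on y, and *Mttp-IKO* pool 3 has 33.1 CPM of Nr0b2 and 85.7 CPM of Cyp7a1. In the right panel (summed CPM of 8 male-biased liver genes on a log x axis, Cyp7b1 on y), *Mttp-IKO* pool 3 is highest on both axes, with 2240 of its 3134 CPM on x from Serpina1e alone (894.5 CPM without it, against 461.8 to 692.8 CPM in the other 5 pools).

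The alternative route did not pass the test either, and its enzymes differed from each other in how much the pools varied. Cyp27a1 (ENSMUSG00000026170, chromosome 1, 74713574 to 74737892, plus strand) was at 138, 219 and 183 CPM in control pools 1, 2 and 3 and at 161, 241 and 264 CPM in *Mttp-IKO* pools 1, 2 and 3. The groups overlapped, with means of 179.7 ± 40.4 and 222 ± 54.0 CPM (SD, n = 3 each) and a log2 fold change of 0.31 (SE 0.248, edgeR adjusted p = 0.498). Cyp7b1 (ENSMUSG00000039519, chromosome 3, 18071950 to 18243338, minus strand), the oxysterol hydroxylase that follows it, was at 21.4, 37.2 and 30.5 CPM in control pools 1, 2 and 3 and at 12.4, 13.8 and 75.4 CPM in *Mttp-IKO* pools 1, 2 and 3. *Mttp-IKO* pools 1 and 2 were below every control pool and *Mttp-IKO* pool 3 was above every one. The means were 29.7 ± 7.92 and 33.9 ± 35.98 CPM (SD, n = 3 each), and the log2 fold change was 0.19 (SE 0.647, edgeR adjusted p = 0.891). Without *Mttp-IKO* pool 3 the sign turned and the gene passed, at −1.18 with an edgeR adjusted p of 0.0441.

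Cyp7b1 is known to be higher in male than in female mouse liver. The summed level of 8 other male-biased liver genes was 640.4, 779.1 and 771.2 CPM in control pools 1, 2 and 3 and 586.1, 566.4 and 3134 CPM in *Mttp-IKO* pools 1, 2 and 3, with the same pool highest. Serpina1e alone made up 2240 CPM of that highest sum, and without it the other 7 genes summed to 604.6, 692.8 and 679.6 CPM in control pools 1, 2 and 3 and to 497.1, 461.8 and 894.5 CPM in *Mttp-IKO* pools 1, 2 and 3. Mup20 was at 390.2 to 466.2 CPM in control pools and at 74.7, 68.2 and 260.8 CPM in *Mttp-IKO* pools 1, 2 and 3. It was thus highest in pool 3 among the *Mttp-IKO* pools, but below every control pool there. Cyp2d9 was at 376 to 422 CPM over the *Mttp-IKO* pools. Serpina1e and Mup20 were singled out after their values were seen. Cyp4a12a, 1 of these genes, singled out after its values were seen, was at 15.1, 14.5 and 8.59 CPM in control pools 1, 2 and 3 and at 0.193, 0.446 and 54.3 CPM in *Mttp-IKO* pools 1, 2 and 3. It thus had the pattern of Cyp7b1 at a larger size. Of the 8 male-biased genes, 1 passed the edgeR test (Cyp2d9, higher), and 4 of 8 female-biased genes passed as higher in *Mttp-IKO* (Cyp2b13, Cyp3a41a, Cyp3a44 and Cux2). Over all genes tested, 4.01% passed in either direction and 0.920% as higher. The female-biased genes had a summed level of 2108 to 2419 CPM in *Mttp-IKO* pools against 712.2 to 829 CPM in control. The article describes the mice of this diet model as male. The part of sex-biased expression, or of the RNA in *Mttp-IKO* pool 3, in the Cyp7b1 values was not tested.

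Set per length within a pool, the ratio of the first classical enzyme to the second alternative one overlapped between the genotypes. Cyp7a1 stood at 0.969, 1.17 and 1.42 times Cyp7b1 in control pools 1, 2 and 3 and at 0.479, 1.32 and 0.589 times in *Mttp-IKO* pools 1, 2 and 3. Cyp27a1 stood at 6.63, 4.99 and 4.21 times Cyp7a1 in control pools 1, 2 and 3 and at 26.9, 13.2 and 5.91 times in *Mttp-IKO* pools 1, 2 and 3. The first enzyme of the alternative route was thus above that of the classical route in all 6 pools, and only *Mttp-IKO* pool 3 fell within the control range of this second ratio. Cyp8b1 stood at 1.07, 2.9 and 3.2 times Cyp7a1 in control pools 1, 2 and 3 and at 4.64, 2.87 and 2.12 times in *Mttp-IKO* pools 1, 2 and 3, so the balance of the second to the first classical enzyme overlapped as well.

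The ring enzymes, which serve both routes, had estimates of opposite sign. Hsd3b7 (ENSMUSG00000042289, chromosome 7), the sterol dehydrogenase, was at 167, 318 and 239 CPM in control pools 1, 2 and 3 and at 242, 196 and 149.7 CPM in *Mttp-IKO* pools 1, 2 and 3. The highest and second lowest values were both control pools, and the means of 241.5 ± 75.5 and 195.7 ± 46.1 CPM (SD, n = 3 each) gave a log2 fold change of −0.30 (SE 0.275, edgeR adjusted p = 0.546). The gene model used in the files runs from 127785608 to 127803802 on the plus strand, whereas GENCODE M21 starts Hsd3b7 at 127800604 and gives the longer span to Gm49388 on the same strand, with 9430064I24Rik on the opposite strand. Its count may therefore hold reads of these neighbours. In the same annotation the other 9 members share no exon with another gene. Akr1d1 (ENSMUSG00000038641, chromosome 6, 37530173 to 37568815, plus strand), the reductase that sets the shape of the ring, was at 47.1, 79.9 and 60.9 CPM in control pools 1, 2 and 3 and at 78.0, 133 and 87.3 CPM in *Mttp-IKO* pools 1, 2 and 3. Only control pool 2, at 79.9 CPM, reached into the *Mttp-IKO* range. The means were 62.6 ± 16.5 and 99.3 ± 29.2 CPM (SD, n = 3 each), with a log2 fold change of 0.66 (SE 0.264, unadjusted p = 0.0356 and adjusted p = 0.185 in edgeR).

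Of the conjugation enzymes, Slc27a5 had the larger difference, and its partner Baat leaned the other way. Slc27a5 (ENSMUSG00000030382, chromosome 7, 12988346 to 12998192, minus strand), the bile acid coenzyme A ligase, was at 109, 221 and 168 CPM in control pools 1, 2 and 3 and at 230.04, 354 and 416 CPM in *Mttp-IKO* pools 1, 2 and 3. Every *Mttp-IKO* pool was above every control pool, by a narrow margin between *Mttp-IKO* pool 1 and control pool 2. The means were 166 ± 55.8 and 334 ± 94.8 CPM (SD, n = 3 each). The log2 fold change of 1.01 (SE 0.310) was close to that of Nr0b2, but its edgeR adjusted p was 0.109, and control pools ranged 2.02-fold. It passed with the DESeq2 Wald test (adjusted p = 0.0197). Alb, the most abundant hepatocyte marker, was at 40131, 69006 and 53314 CPM in control pools 1, 2 and 3 and at 97241, 132236 and 84786 CPM in *Mttp-IKO* pools 1, 2 and 3 (log2 fold change 0.95, SE 0.347, edgeR adjusted p = 0.157). The 9 hepatocyte markers found had a median log2 fold change of 0.336, and 2 of them, Ttr (−0.55) and Hpx (−0.29), were lower. Whether the level of hepatocyte mRNA as a whole takes part in the Slc27a5 values was not tested.

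Baat (ENSMUSG00000039653, chromosome 4, 49489422 to 49506557, minus strand), which transfers the bile acid from coenzyme A to taurine or glycine, varied least between the control pools, by 1.21-fold. Its level was 61.0, 73.7 and 69.0 CPM in control pools 1, 2 and 3 and 47.5, 55.2 and 64.6 CPM in *Mttp-IKO* pools 1, 2 and 3. *Mttp-IKO* pool 3 lay above control pool 1, and the means of 67.9 ± 6.42 and 55.8 ± 8.61 CPM (SD, n = 3 each) gave a log2 fold change of −0.28 (SE 0.167, edgeR adjusted p = 0.346). Per length, Baat stood at 0.703, 0.42 and 0.516 times Slc27a5 in control pools 1, 2 and 3 and at 0.26, 0.196 and 0.196 times in *Mttp-IKO* pools 1, 2 and 3. The ratio of the final to the preceding step of conjugation was thus lower in every *Mttp-IKO* pool than in every control pool. Slc27a5 alone was already without overlap, as were 31.0% of all genes tested, while Baat overlapped. Neither gene passed the edgeR test over all 6 pools.

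**Figure D3:**
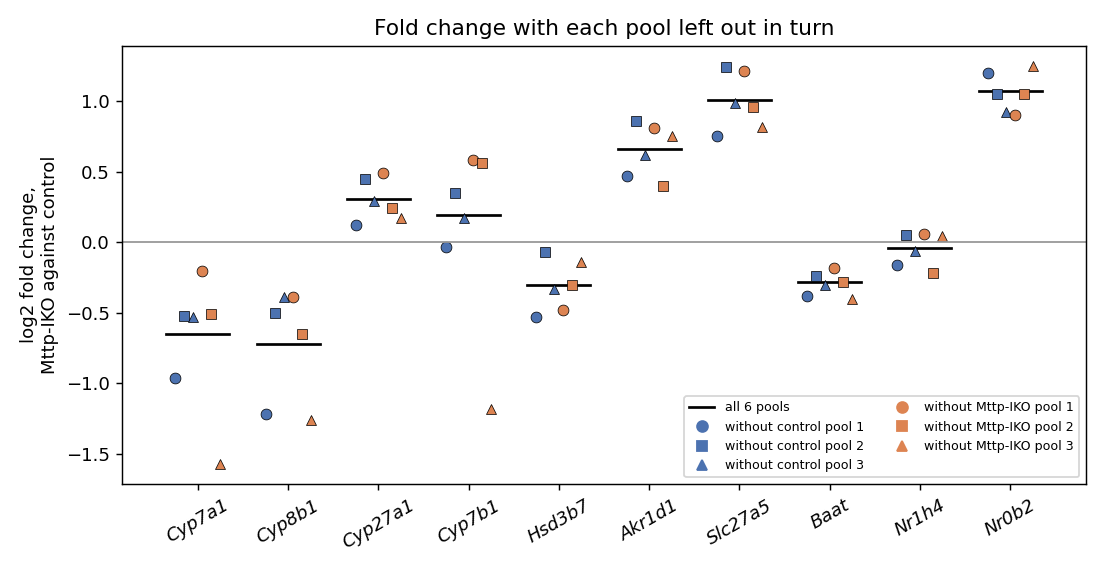
Log2 fold change of each of the 10 genes (*Mttp-IKO* against control, y axis) over all 6 pools (black bars) and with each pool left out in turn (points, coloured by the genotype and shaped by the number of the pool left out). Nr0b2 stays between 0.90 and 1.25, whereas leaving out *Mttp-IKO* pool 3 takes Cyp7b1 from 0.19 to −1.18 and Cyp7a1 from −0.65 to −1.57.

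Levels between genes were compared per length, as CPM per kilobase of exon (RPKM) on the TMM scale. In control liver the order of mean levels was Cyp27a1 (82.7 ± 18.6 RPKM), Slc27a5 (67.95 ± 22.8), Cyp8b1 (44.2 ± 29.5), Nr1h4 (39.5 ± 5.66), Hsd3b7 (39.2 ± 12.3), Baat (35.0 ± 3.31), Akr1d1 (21.5 ± 5.66), Nr0b2 (18.7 ± 3.48), Cyp7a1 (16.6 ± 6.06) and Cyp7b1 (13.7 ± 3.66). Of the neighbours in this order, Baat and Akr1d1 alone had pools that did not overlap. In *Mttp-IKO* liver Slc27a5 stood first (136 ± 38.8 RPKM), before Cyp27a1 (102 ± 24.9), and Nr0b2 moved from the eighth to the third place (39.3 ± 9.53). Cyp8b1 went from the third to the eighth place (26.8 ± 15.5 RPKM) and Cyp7a1 was last (10.6 ± 9.08). The place of Hsd3b7 rests on the doubtful gene model given above, with a length of 6154 nt. Among these neighbours the gap between Cyp27a1 and Nr0b2 was the one without overlap, and the others did not differ beyond their spread. In both genotypes the first gene of the alternative route was thus far above the first gene of the classical route on this scale of mRNA level, which says nothing of enzyme activity.

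A list of 37 further genes of the pathway was read in the same fit, and 36 had enough reads to be tested. Of these, 20 had a higher and 16 a lower mean, with a median log2 fold change of 0.14. Cyp39a1 rose and was the only one to pass, 1 of 36 beside the 4.01% of all genes tested. Cyp39a1 hydroxylates an oxysterol that is made mainly in brain by Cyp46a1, and so feeds a minor branch of synthesis. Its level was 59.2, 81.1 and 67.0 CPM in control pools 1, 2 and 3 and 173, 180.5 and 187 CPM in *Mttp-IKO* pools 1, 2 and 3. All 3 *Mttp-IKO* pools lay close together and far above control, with means of 69.1 ± 11.1 and 180.3 ± 6.84 CPM (SD, n = 3 each) and a log2 fold change of 1.38 (SE 0.171, edgeR adjusted p = 0.0159). It passed in 14 of 17 alternatives and missed without control pool 1, control pool 3 or *Mttp-IKO* pool 2 (edgeR adjusted p = 0.0715, 0.0752 and 0.0914).

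**Figure D4:**
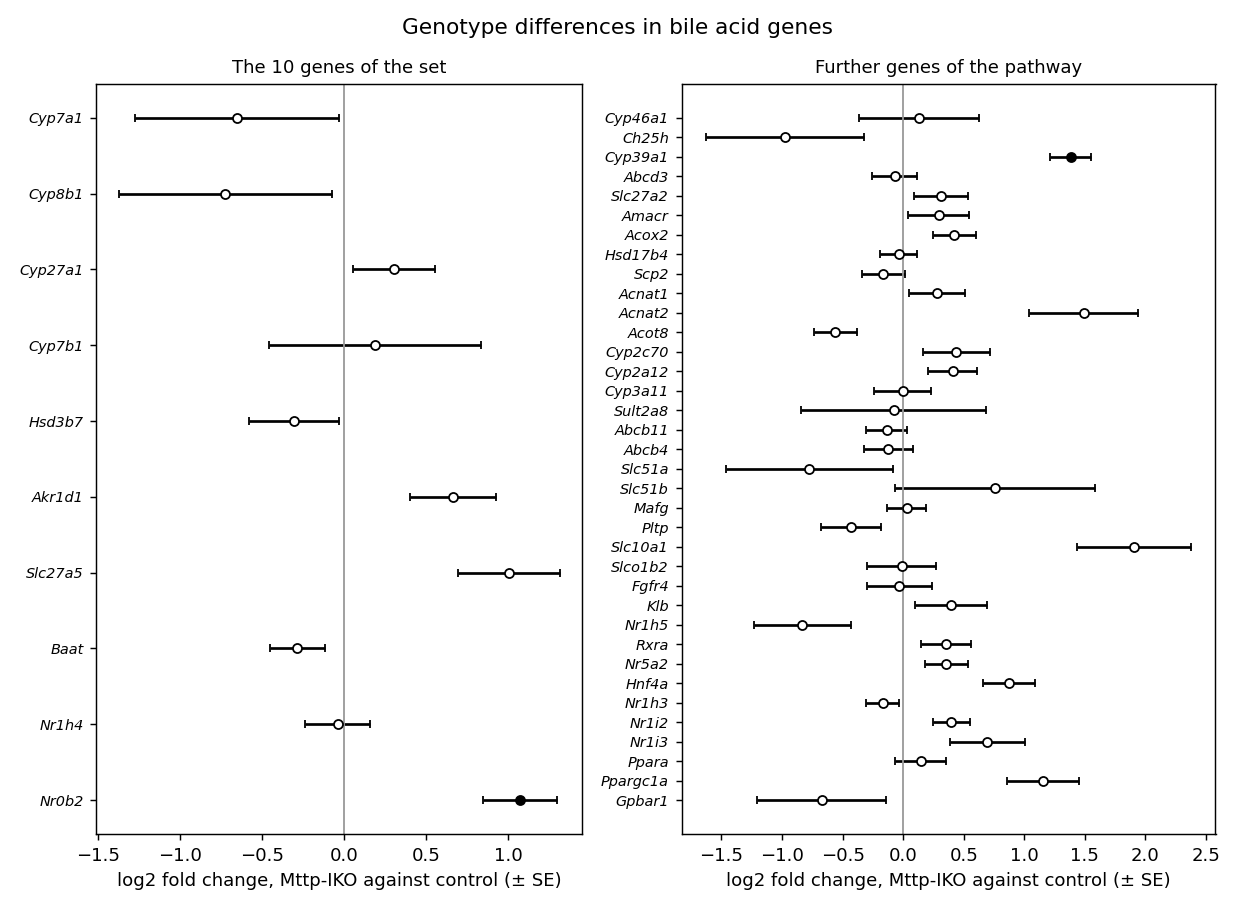
Log2 fold change, *Mttp-IKO* against control, with its SE for the 10 genes (left) and for the 36 further genes of the pathway that were tested (right). Filled points passed the edgeR test at an adjusted p under 0.05: Nr0b2 (1.07) on the left and Cyp39a1 (1.38) on the right. Open points did not pass.

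The remaining further genes did not pass in edgeR over all 6 pools. The DESeq2 Wald test called 5 of the 36 further genes tested, all as higher (Cyp39a1, Slc10a1, Acnat2, Hnf4a and Ppargc1a). Over all 17287 genes tested it called 1995, of which 657 were higher. Slc10a1, the main uptake carrier of conjugated bile acids, had the largest estimate: it was at 62.6, 203 and 129 CPM in control pools 1, 2 and 3 and at 373, 766 and 341 CPM in *Mttp-IKO* pools 1, 2 and 3, without overlap, at a log2 fold change of 1.91 (SE 0.471, edgeR adjusted p = 0.0652). It passed in 5 of 17 alternatives, among them the DESeq2 Wald test (adjusted p = 0.000387), edgeR without a filter on low counts (adjusted p = 0.0257) and edgeR with the length trend removed (adjusted p = 0.0436). The other uptake carrier, Slco1b2, had an estimate near 0 (−0.011, SE 0.284, edgeR adjusted p = 0.986), whose sign depends on the scaling. Acnat2, a paralog of Baat, was at 28.6, 45.1 and 36.4 CPM in control pools 1, 2 and 3 and at 147, 125 and 37.6 CPM in *Mttp-IKO* pools 1, 2 and 3 (log2 fold change 1.49, SE 0.449, edgeR adjusted p = 0.104). *Mttp-IKO* pool 3 was at the control level there. The gene passed without that pool (log2 fold change 1.89, edgeR adjusted p = 0.0113) and with the DESeq2 Wald test over all pools (adjusted p = 0.0086). The neighbouring paralog Acnat1 had 0.28 (SE 0.230, edgeR adjusted p = 0.498), and near-identical paralogs may divide their reads unevenly. In the peroxisomal steps that shorten the side chain, the largest and smallest estimates were those of Acox2 (0.42, SE 0.179, edgeR adjusted p = 0.207) and Hsd17b4 (−0.036, SE 0.150, edgeR adjusted p = 0.911).

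Among the hydroxylases that act on finished bile acids, the estimates ran from −0.0016 (SE 0.235, edgeR adjusted p = 0.998) for Cyp3a11 to 0.44 (SE 0.275, edgeR adjusted p = 0.376) for Cyp2c70, which makes the muricholic acids of the mouse. Of the 10 receptors and coregulators, 7 had a higher mean and 0 passed by edgeR, where 4.01% of all genes tested passed. An unadjusted p under 0.05 was seen for 3 of the 10, where 23.0% of all genes tested had one. The DESeq2 Wald test called 2 as higher (Hnf4a and Ppargc1a), where it called 657 of all 17287 genes tested as higher. Ppargc1a, the coactivator known as PGC-1alpha, had the largest estimate at 35.9 ± 6.10 CPM in control and 79.9 ± 29.8 CPM in *Mttp-IKO* liver (SD, n = 3 each), a log2 fold change of 1.15 (SE 0.298, edgeR adjusted p = 0.0724, DESeq2 Wald adjusted p = 0.00526). Ppara, the fatty acid receptor, had the smallest (0.14, SE 0.213, edgeR adjusted p = 0.724). Cyp46a1, the brain enzyme before Cyp39a1, was at only 20 to 67 reads a pool, with a log2 fold change of 0.13 (SE 0.495, edgeR adjusted p = 0.904).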

How the data were processed

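Per the labels and the study's methods, liver RNA was extracted with TRIzol, pooled by genotype and depleted of ribosomal RNA, and reads were aligned with STAR 2.5.1a to GRCm38 and counted on genes with featureCounts 1.4.6-p5. Whether counting used strand is not given in the sources used here. The authors deposited raw counts of reads per gene, and the CPM and RPKM columns that the authors deposited beside them were used only to check the counts. Gene lengths were the deposited ones.

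Counts were tested with edgeR 4.0.16 in R 4.3.3 (TMM scaling, filterByExpr with a minimum count of 10 and a total of 15, glmQLFit, glmQLFTest), and the fit held 3 control and 3 *Mttp-IKO* pools. SEs are the log2 fold change over the square root of F. Alternatives used DESeq2 1.42.0 and limma 3.58.1. The test was run on simulated counts in which 200 genes were changed, and it recovered 190 of them with 17 false calls. All genes had the same relative spread there, and each change was larger than that of Nr0b2. The simulation therefore does not cover smaller changes or genes whose pools varied widely. Levels in CPM and RPKM are on the TMM scale. Pools are separate mixtures of mice, so p-values measure the spread between pools. No 2 pools of the same genotype were alike within sampling noise, and pairs across genotypes were not examined.

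The members and all gene lists were chosen with earlier results of these data known. Named are all 10 members, further pathway genes that passed, the largest and smallest change of each list, Fgf15 and Nr1h5, with other genes as marked in the text. Counts over the list of clock genes are not reported here.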

Additional observations from a re-analysis of the deposited data

How the results depend on the processing

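With 3 pools a group, the number of calls changed with the pool left out. Such a fit also has fewer pools, so a lost call does not show that the call rested on that pool. Over all genes, 694 passed (159 higher, 535 lower), against 1995 (657, 1338) with the DESeq2 Wald test, 428 with limma-voom, 1658 at an adjusted p under 0.1 and 0 to 892 with a pool left out; without *Mttp-IKO* pool 2 edgeR called 0 genes, with 3221 at an unadjusted p under 0.05, and 24, 21 and 55 passed without control pool 1, control pool 3 and *Mttp-IKO* pool 1. The split was 112 higher and 907 lower with total counts and 353 and 508 with the length trend removed, which moved the median log2 fold change of all genes by −0.181 and 0.109. Of the 10 members, 1 passed, against 0 with total counts, 0 with limma-voom, 2 with the DESeq2 Wald test, 2 with the replicate block and 0 to 2 with a pool left out. Of the further genes, 1 passed, against 5 with the DESeq2 Wald test, 3 without a filter on low counts, 3 with the replicate block, 3 with the length trend removed, 4 at an adjusted p under 0.1 and 0 to 2 with a pool left out. The cause of these differences was not tested.

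Deviations of same-numbered pools correlated at 0.139, 0.112 and 0.00698. Every control pool correlated best with the *Mttp-IKO* pool of its number, but *Mttp-IKO* pool 3 correlated best with control pool 2 (0.0208). The labels name no pairing of the pools, and these values cannot decide whether same-numbered pools were handled together. The replicate block left 592 genes past the threshold, and with it Slc27a5 (edgeR adjusted p = 0.0493), Slc10a1 (0.0276) and Ppargc1a (0.0413) passed as well.

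Signs turned as follows. Cyp7b1 was −0.34 with limma-voom, −0.33 with the replicate block and −1.18 to 0.58 with a pool left out. Nr1h4 was 0.098 with the length trend removed and −0.22 to 0.056 with a pool left out. With total counts, Cyp46a1 was −0.057, Mafg −0.15 and Ppara −0.033, and with a pool left out they ran from −0.25 to 0.50, −0.056 to 0.09 and −0.064 to 0.28. With the length trend removed, Hsd17b4 was 0.068, Fgfr4 0.066, Cyp3a11 0.15 and Slco1b2 0.054. Cyp3a11 was also 0.013 with DESeq2's size factors and its Wald test and 0.015 with protein-coding genes only, and Slco1b2 0.0035, 0.0035 and 0.006, with 0.0079 in limma-voom and 0.0075 with the replicate block. With a pool left out, Cyp3a11 ran from −0.23 to 0.12, Slco1b2 from −0.25 to 0.21 and Fgfr4 from −0.27 to 0.20. None of these estimates passed the test except Cyp7b1 without *Mttp-IKO* pool 3.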
